A study of Mus musculus with 8 samples.

Results

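The genes of cholesterol synthesis, of its control, and of sterol efflux and storage were examined in the liver of mice with diet-induced steatohepatitis. The set holds 30 genes of the 52030 named symbols in the deposited table, chosen by symbol, and all 30 were found. They are 18 enzymes that build cholesterol from acetyl-CoA, 4 proteins that control the transcription factor SREBP2, 1 sterol carrier, 1 ligase that limits lipoprotein uptake, 4 efflux transporters and 2 enzymes that esterify cholesterol. Bulk RNA of 8 liver libraries was sequenced. RIC_hEV (4 libraries) are livers of mice injected intravenously with extracellular vesicles from the blood of volunteers after remote limb ischemic conditioning, in which the blood supply of a limb is briefly stopped and restored several times. ctr_hEV (4 libraries) received vesicles of sham-treated volunteers. Both groups thus received human vesicles, and livers without vesicles were not analysed here. All mice carry the label WT and were on CDAHFD, a high-fat diet without choline that leads to fatty, inflamed liver. The age, strain, dose, number of injections and number of volunteers are not stated in the labels, nor is it stated that each library is a separate mouse, so p-values measure the spread between these libraries.

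Hepatocytes make cholesterol when their membranes run low in it. SREBP2 is then escorted by Scap from the endoplasmic reticulum to the Golgi, cleaved, and turns on the enzymes of the mevalonate and sterol pathway together with uptake of lipoproteins, whereas Insig proteins hold the complex back when sterols are plentiful. Surplus cholesterol is esterified by the Soat enzymes or passed out by ABC transporters, several of which are induced by the oxysterol receptors LXR. In an inflamed liver, macrophages also express the transporters Abca1 and Abcg1 and the esterifying enzyme Soat1.

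Promoters of 4 members are shown as examples, and none of these genes passed the threshold below. Hmgcs1 and Sc5d are synthesis genes whose groups did not overlap, Ebp is the synthesis enzyme with the highest change relative to the median gene, and Abcg5 shares its start region with Abcg8, its partner in sterol export. Each covers 250 bases before to 50 after the RefSeq start (GRCm38.p6, the assembly of mm10), read 5′ to 3′ on the gene's strand. Capitals mark the letters of 3 motifs searched on both strands, no match overlapping another in the 4 promoters: TCACNCCAC, a form of the sterol regulatory element bound by SREBP2, CCAAT of NF-Y (ATTGG on the opposite strand) and GGGCGG of Sp1 (CCGCCC on the opposite strand).
Hmgcs1, chr13:119690101-119690400, plus strand: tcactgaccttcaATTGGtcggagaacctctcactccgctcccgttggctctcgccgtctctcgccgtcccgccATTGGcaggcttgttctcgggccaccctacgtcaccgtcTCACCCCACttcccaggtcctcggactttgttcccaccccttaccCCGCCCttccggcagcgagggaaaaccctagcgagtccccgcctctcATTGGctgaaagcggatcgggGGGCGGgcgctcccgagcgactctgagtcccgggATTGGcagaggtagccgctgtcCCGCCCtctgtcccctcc
Sc5d, chr9:42264251-42264550, minus strand: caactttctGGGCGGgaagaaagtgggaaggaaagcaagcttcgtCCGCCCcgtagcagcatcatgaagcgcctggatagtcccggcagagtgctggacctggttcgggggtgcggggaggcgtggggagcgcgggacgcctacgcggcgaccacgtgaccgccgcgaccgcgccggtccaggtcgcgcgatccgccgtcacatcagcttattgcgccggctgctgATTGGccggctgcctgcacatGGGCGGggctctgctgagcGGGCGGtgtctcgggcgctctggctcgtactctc
Ebp, chrX:8193463-8193762, minus strand: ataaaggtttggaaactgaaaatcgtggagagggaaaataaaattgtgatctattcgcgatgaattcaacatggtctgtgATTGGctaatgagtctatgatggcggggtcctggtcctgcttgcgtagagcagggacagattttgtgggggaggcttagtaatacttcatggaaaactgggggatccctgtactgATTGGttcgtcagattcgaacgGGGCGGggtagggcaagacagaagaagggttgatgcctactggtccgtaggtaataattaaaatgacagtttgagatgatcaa
Abcg5, chr17:84682962-84683261, minus strand: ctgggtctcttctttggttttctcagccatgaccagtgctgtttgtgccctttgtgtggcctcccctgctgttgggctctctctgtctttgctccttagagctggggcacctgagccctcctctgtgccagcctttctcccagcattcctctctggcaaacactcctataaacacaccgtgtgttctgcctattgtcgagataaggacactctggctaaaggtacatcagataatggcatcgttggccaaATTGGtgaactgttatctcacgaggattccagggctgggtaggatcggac

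The promoter table matched 24 of the 30 members. The sterol regulatory element in the form searched occurred in 1 of the 24, Hmgcs1, where it begins 137 bases before the start, and in 1.44% of all 27025 genes in the table. CCAAT occurred in 21 of 24 members (87.5%), against 41.1% of all genes. GGGCGG likewise occurred in 21 of 24, against 38.2% of all genes. AGGTCA and a second AGGTCA in the same direction with 4 bases between, the LXR direct repeat, was found in none of the 24 and in 0.0148% of all genes. The Abcg5 and Abcg8 windows share 209 bases, as the genes are transcribed away from each other. A gene counted if any of its windows matched, and the comparison genes were not limited to those expressed in liver. These matches describe letters in 300-base windows and do not show binding.

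Estimated depth was 19300000 to 28800000 fragments per library, and ctr_hEV 1 and ctr_hEV 3 stood apart from the other libraries on the first principal component (-36.1 and -23.3, against -2.36 to 16.3 for the rest), which held 44.4% of the variance. Hepatocyte markers were present in every library, their summed level being 5599.5 to 6415 FPKM in RIC_hEV and 4653 to 5565 FPKM in ctr_hEV, with 5 of 7 higher in RIC_hEV and the lowest RIC_hEV library just above the highest ctr_hEV library. Levels are FPKM, fragment counts scaled for transcript length and library depth, and changes are log2(FPKM + 1) differences of RIC_hEV against ctr_hEV fitted with limma across the 11268 genes that averaged 1 FPKM or more. The median gene tested had a change of -0.11, so changes are given relative to it, and the SE, interval and p belong to the change as fitted.

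No member passed the threshold. Of the 30 members, 28 were tested, none had an adjusted p below 0.05 (limma, Benjamini-Hochberg over all genes tested), and 4 of all genes tested did (0.0355%). The lowest adjusted p among members was 0.331, shared by Hmgcs1 and Stard4. At an unadjusted p below 0.05, 5 of 28 members were lower in RIC_hEV (17.9%), against 11.4% of all genes tested, and 0 were higher, against 2.64%. That count depends on the scaling: with each library centred on its own median, 2 members were lower (Hmgcs1 and Abca1) and 3 higher (Ebp, Hsd17b7 and Scap), and over all genes tested 924 were higher and 437 lower, against 297 and 1279 as deposited. On the TPM scale 195 were higher and 1587 lower. Members lower numbered 3 without RIC_hEV 1, RIC_hEV 4 or ctr_hEV 2, where 5.28%, 11.7% and 8.71% of all genes were lower, and 7 without RIC_hEV 2, where 7.47% were. Without ctr_hEV 4, 6 members were lower, against 24.7% of all genes, and 3 higher (Ebp, Insig1 and Tm7sf2), against 4.38%. The groups did not overlap in 3 of 28 members, Hmgcs1, Sc5d and Stard4, each lower in RIC_hEV (10.7%), against 4.56% of all genes tested. No tested member lay wholly higher, against 1.31%. Overlap was judged here and below on FPKM as deposited, and not after centring, so it too can depend on the scaling. With each library centred on its own median, the adjusted p was 0.412 for Hmgcs1, 0.619 for Sc5d and 0.428 for Stard4 (limma). The median change of the 28 was 0.034 relative to the median gene, with 16 above it and 12 below.

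**Figure D1:**
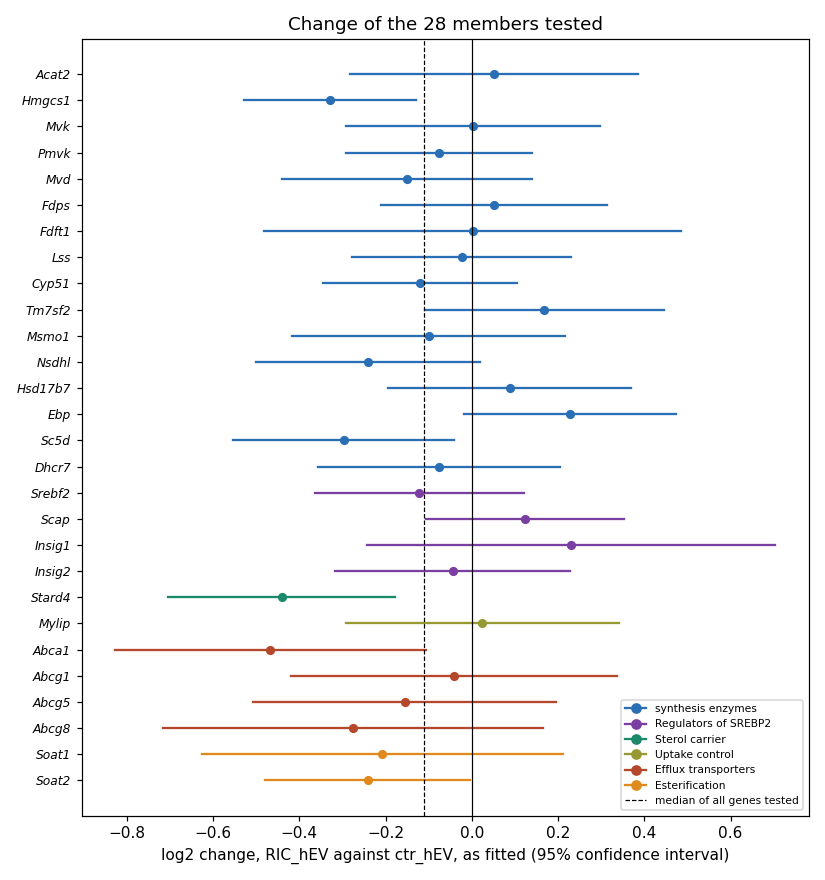
Fitted log2 change of the 28 tested members, RIC_hEV against ctr_hEV, with 95% confidence intervals, coloured by role. The dashed line is the median of all genes tested at -0.11, and the intervals of Hmgcs1, Sc5d, Stard4, Abca1 and Soat2 lie below 0.

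The synthesis enzymes were expressed over a wide range of levels in these livers, with mean FPKM over all libraries from 0.437 (Sqle) to 38.6 (Ebp) and a median of 2.45. Of the 18, 16 were tested and none was called. At an unadjusted p below 0.05, 2 were lower (12.5%, near the 11.4% of all genes tested) and 0 higher. Relative to the median gene 11 lay above and 5 below, with a median of 0.061.

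The first steps of the pathway are carried out by Acat2 and Hmgcs1, and the groups were apart in Hmgcs1 and overlapped in Acat2. Hmgcs1 condenses acetoacetyl-CoA and acetyl-CoA to HMG-CoA and lies on chromosome 13, 119690379 to 119708260, plus strand (mm10, GENCODE M21). Its level was 8.27, 8.65, 9.41 and 8.83 FPKM in RIC_hEV 1 to 4, against 10.9, 11.5, 11.9 and 10.8 FPKM in ctr_hEV 1 to 4. Every RIC_hEV library lay below every ctr_hEV library, and the spread within each group was narrow. The group means were 8.79 ± 0.475 FPKM in RIC_hEV and 11.3 ± 0.521 FPKM in ctr_hEV (SD, n = 4 each), 22.2% lower after conditioned vesicles. The relative log2 change was -0.22 and the fitted change -0.33 (SE 0.090, 95% interval -0.53 to -0.13, limma adjusted p = 0.331). Its promoter, shown above, holds 1 match to the sterol regulatory element, 4 to CCAAT and 3 to GGGCGG. An antisense gene model, Gm48342, overlaps 12.1% of its exon length, and without a stated strand setting their reads cannot be told apart. Acat2, the cytosolic thiolase that makes acetoacetyl-CoA, was at 15.5, 21.2, 14.4 and 14.0 FPKM in RIC_hEV 1 to 4, against 14.2, 19.1, 13.5 and 15.6 FPKM in ctr_hEV 1 to 4. Library 2 was the highest of each group, the groups overlapped, and 43.7% of the 31-base stretches of Acat2 also occur in other genes, chiefly Acat3, so its level is uncertain.

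The enzymes from mevalonate to squalene had overlapping groups in each of the 5 genes. Mvk, mevalonate kinase, averaged 1.75 ± 0.350 FPKM in RIC_hEV and 1.75 ± 0.402 FPKM in ctr_hEV (SD, n = 4 each), with the highest ctr_hEV value in library 1. Pmvk, the second kinase, averaged 4.32 ± 0.411 FPKM in RIC_hEV and 4.60 ± 0.316 FPKM in ctr_hEV, and Mvd, the decarboxylase that follows, 1.24 ± 0.282 FPKM in RIC_hEV and 1.49 ± 0.334 FPKM in ctr_hEV. Their 95% intervals for the fitted change were -0.29 to 0.30, -0.29 to 0.14 and -0.44 to 0.14. Idi1, the isopentenyl diphosphate isomerase, was below the filter at 0.516, 0.846, 0.670 and 0.825 FPKM in RIC_hEV 1 to 4, against 0.157, 0.846, 0.637 and 0.977 FPKM in ctr_hEV 1 to 4. The values of Idi1 rest on an estimated 15 to 87 fragments per library, and its exact permutation test gave p = 0.800. Of the 31-base stretches of Idi1, 27.1% occur in other genes. Fdps, farnesyl diphosphate synthase, averaged 2.55 ± 0.284 FPKM in RIC_hEV and 2.44 ± 0.463 FPKM in ctr_hEV, and 27.9% of its 31-base stretches occur in other genes.

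Fdft1, squalene synthase at the branch point towards sterols, varied more within groups than between them, at 4.87, 11.03, 8.30 and 8.16 FPKM in RIC_hEV 1 to 4, against 7.27, 10.5, 8.27 and 5.80 FPKM in ctr_hEV 1 to 4. Library 2 was again highest in both groups, at about the same level. The fitted change was 0.0021 (95% interval -0.48 to 0.48, limma adjusted p = 0.997). Its exons overlap those of Ctsb on the opposite strand over 18.3% of their length.

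Sqle, squalene epoxidase, a slow step of sterol synthesis, was the least abundant member. It was at 0.358, 0.338, 0.286 and 0.328 FPKM in RIC_hEV 1 to 4, against 0.762, 0.527, 0.531 and 0.362 FPKM in ctr_hEV 1 to 4. All RIC_hEV libraries lay below all ctr_hEV libraries, but the gap between the highest RIC_hEV and the lowest ctr_hEV library was small. The mean was 39.9% lower in RIC_hEV, and a two-sided exact permutation test over 70 assignments gave the smallest p it can, 0.0286. In a fit of all 28904 genes detected in any library its adjusted p was 0.542 (limma). The level of Sqle rests on an estimated 35 to 117 fragments per library.

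**Figure D2:**
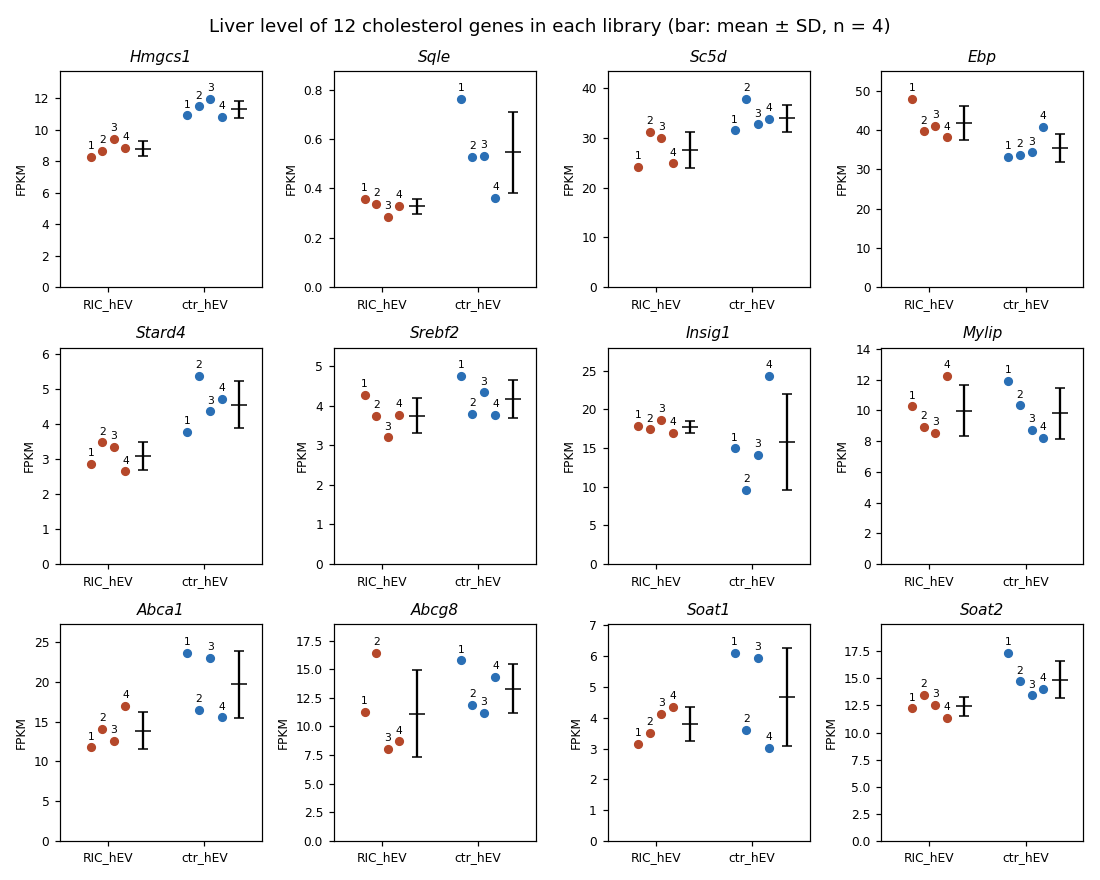
FPKM of 12 members in each library; numbers are replicate numbers, and bars give the mean and SD of 4 libraries. In Hmgcs1, Sqle, Sc5d and Stard4 every RIC_hEV point lies below every ctr_hEV point, whereas in Abca1 and Soat1 the high ctr_hEV points are libraries 1 and 3.

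The enzymes that turn lanosterol into cholesterol had no common direction. Lss, which closes the ring system to lanosterol, averaged 1.198 ± 0.151 FPKM in RIC_hEV and 1.24 ± 0.270 FPKM in ctr_hEV (SD, n = 4 each), and Cyp51, the lanosterol demethylase, averaged 2.52 ± 0.288 FPKM in RIC_hEV and 2.82 ± 0.243 FPKM in ctr_hEV. Tm7sf2, a sterol reductase, was at 1.65, 1.62, 1.39 and 1.51 FPKM in RIC_hEV 1 to 4, against 0.919, 1.19, 1.202 and 1.82 FPKM in ctr_hEV 1 to 4; its highest value was in ctr_hEV 4 and the 3 other ctr_hEV libraries lay below every RIC_hEV library. Its relative change was 0.28 (limma adjusted p = 0.499), with 0.16 to 0.43 when single libraries were left out (lowest without ctr_hEV 1, highest without ctr_hEV 4). Exons of Tm7sf2 overlap those of Vps51 on the same strand over 12.1% of their length, so its low level is uncertain. Msmo1, Nsdhl and Hsd17b7 together strip methyl groups from the sterol ring. Msmo1 was at 1.86, 3.11, 1.95 and 1.96 FPKM in RIC_hEV 1 to 4, against 2.43, 3.02, 1.98 and 2.30 FPKM in ctr_hEV 1 to 4, with library 2 highest in both groups. Nsdhl was at 1.78, 2.09, 1.70 and 1.76 FPKM in RIC_hEV 1 to 4, against 2.95, 2.14, 2.49 and 1.88 FPKM in ctr_hEV 1 to 4, with a relative change of -0.13 (fitted 95% interval -0.50 to 0.019, limma adjusted p = 0.370). Hsd17b7 averaged 10.8 ± 0.735 FPKM in RIC_hEV and 10.2 ± 1.85 FPKM in ctr_hEV.

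Ebp and Sc5d, which act one after the other on the sterol nucleus, had fitted changes of opposite sign. Ebp, the sterol isomerase on chromosome X, 8185329 to 8193512, minus strand, had the highest FPKM of the synthesis enzymes, with 47.9, 39.7, 41.1 and 38.2 FPKM in RIC_hEV 1 to 4, against 33.2, 33.6, 34.3 and 40.8 FPKM in ctr_hEV 1 to 4. In Ebp, ctr_hEV 4 lay above 2 RIC_hEV libraries and the other ctr_hEV libraries lay below all of them. Its relative log2 change was 0.34 and the fitted one 0.23 (SE 0.11, 95% interval -0.019 to 0.47, limma adjusted p = 0.370). Sc5d, the desaturase that uses the product of Ebp, lies on chromosome 9, 42251595 to 42264256, minus strand. It measured 24.2, 31.3, 29.99 and 24.9 FPKM in RIC_hEV 1 to 4, against 31.6, 37.9, 32.8 and 33.9 FPKM in ctr_hEV 1 to 4. Its groups did not overlap, though RIC_hEV 2 lay just below ctr_hEV 1. The relative change of Sc5d was -0.19 and the fitted one -0.30 (SE 0.12, 95% interval -0.55 to -0.042, limma adjusted p = 0.354). The difference between the changes of both genes was not tested. Dhcr7, which reduces the last double bond on the route through dehydrocholesterol, averaged 2.31 ± 0.307 FPKM in RIC_hEV and 2.51 ± 0.512 FPKM in ctr_hEV, with overlapping groups.

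Stard4, a soluble carrier that moves sterol between membranes and is itself a target of SREBP2, lies outside the enzyme chain and had a lower change than any of the 16 enzymes tested. On chromosome 18, 33199355 to 33213862, minus strand, its level was 2.87, 3.48, 3.35 and 2.65 FPKM in RIC_hEV 1 to 4, against 3.77, 5.38, 4.36 and 4.72 FPKM in ctr_hEV 1 to 4. All RIC_hEV libraries lay below all ctr_hEV libraries, and ctr_hEV 1 was the nearest to them. Means were 3.09 ± 0.393 FPKM in RIC_hEV and 4.56 ± 0.674 FPKM in ctr_hEV (SD, n = 4 each), 32.2% lower in RIC_hEV. Relative to the median gene its change was -0.33, with a fitted change of -0.44 (SE 0.12, 95% interval -0.70 to -0.18, limma adjusted p = 0.331). Without ctr_hEV 1 and ctr_hEV 3 together, a pair chosen after the values were seen, the relative change was -0.54 (limma adjusted p = 0.495). Those of Hmgcs1 and Sc5d were then -0.28 and -0.34 (limma adjusted p = 0.886 for each).

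The regulators of SREBP2 overlapped between the groups. Srebf2, which encodes SREBP2, was at 4.27, 3.74, 3.20 and 3.77 FPKM in RIC_hEV 1 to 4, against 4.75, 3.79, 4.34 and 3.77 FPKM in ctr_hEV 1 to 4, a relative change of -0.011 (fitted 95% interval -0.36 to 0.12, limma adjusted p = 0.571). Scap, its escort protein, was at 10.7, 10.04, 8.68 and 11.1 FPKM in RIC_hEV 1 to 4, against 9.76, 9.28, 9.29 and 8.43 FPKM in ctr_hEV 1 to 4 (relative change 0.23, limma adjusted p = 0.542). A gene model on the opposite strand, 5830462I19Rik, overlaps 13.2% of the exon length of Scap.

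Insig1, the retention protein that SREBP2 itself induces, was at 17.8, 17.4, 18.7 and 16.98 FPKM in RIC_hEV 1 to 4, against 14.97, 9.57, 14.1 and 24.3 FPKM in ctr_hEV 1 to 4. The RIC_hEV libraries lay close together, while ctr_hEV 2 was the lowest library and ctr_hEV 4 the highest of all 8. Its fitted 95% interval, -0.24 to 0.70, spans both directions (limma adjusted p = 0.581). Insig2, the form that does not depend on SREBP2 for its transcription, was the most abundant member, at 57.4 ± 8.48 FPKM in RIC_hEV and 58.9 ± 5.05 FPKM in ctr_hEV (SD, n = 4 each; limma adjusted p = 0.867). Mylip, a ubiquitin ligase induced by LXR that marks receptors of the LDL family for degradation, was at 10.3, 8.93, 8.53 and 12.3 FPKM in RIC_hEV 1 to 4, against 11.9, 10.3, 8.74 and 8.24 FPKM in ctr_hEV 1 to 4. Its groups overlapped, with a relative change of 0.14 (limma adjusted p = 0.939), or 0.059 to 0.20 with single libraries left out (lowest without RIC_hEV 4, highest without RIC_hEV 3).

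No efflux transporter or esterifying enzyme passed, and Abca1 and Soat2 had the lowest p. All 6 were tested, and 2 were lower at an unadjusted p below 0.05 (33.3%, against 11.4% of all genes tested) and 0 higher (against 2.64%). Of the 6, 5 lay below the median gene (median -0.11). Abca1, which loads cholesterol onto lipid-poor apolipoprotein to form HDL, lies on chromosome 4, 53030787 to 53159895, minus strand. Its FPKM were 11.8, 14.0, 12.6 and 17.00 FPKM in RIC_hEV 1 to 4, against 23.7, 16.5, 23.0 and 15.5 FPKM in ctr_hEV 1 to 4. ctr_hEV 1 and 3 were the highest libraries, and RIC_hEV 4 lay above ctr_hEV 2 and 4. Its means were 13.8 ± 2.30 FPKM in RIC_hEV and 19.7 ± 4.25 FPKM in ctr_hEV (SD, n = 4 each), with a relative log2 change of -0.36 and a fitted one of -0.47 (SE 0.16, 95% interval -0.83 to -0.11, limma adjusted p = 0.352). Without ctr_hEV 1 and ctr_hEV 3 together the relative change was -0.18 (limma adjusted p = 0.888). Leaving out the highest ctr_hEV libraries must raise the fitted change, here and for Abcg1 and Soat1 below.

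Abcg1, which passes cholesterol to mature HDL, was at 5.72, 5.81, 6.24 and 6.87 FPKM in RIC_hEV 1 to 4, against 8.56, 4.64, 7.88 and 5.11 FPKM in ctr_hEV 1 to 4. The RIC_hEV libraries lay between ctr_hEV 1 and 3 above and ctr_hEV 2 and 4 below. The relative change of 0.069 became 0.31 without ctr_hEV 1 and 3 (limma adjusted p = 0.886). Soat1, the esterifying enzyme of macrophages and most other cells, was at 3.16, 3.52, 4.13 and 4.35 FPKM in RIC_hEV 1 to 4, against 6.12, 3.603, 5.95 and 3.03 FPKM in ctr_hEV 1 to 4. ctr_hEV 1 and 3 were again the highest, with ctr_hEV 4 the lowest, and its relative change of -0.10 became 0.17 without them (limma adjusted p = 0.904).

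The sum of macrophage markers, like Abca1, Abcg1 and Soat1, was highest in ctr_hEV 1 and 3. So was the mean log2(FPKM + 1) of all genes tested, at 3.11 and 3.03, against 2.85 to 2.97 in the other libraries. The summed level of 9 markers was 406, 601, 543 and 622 FPKM in RIC_hEV 1 to 4, against 1069.9, 546, 793 and 551 FPKM in ctr_hEV 1 to 4, and 8 of the 9 had a lower mean in RIC_hEV. Most genes went that way: 73.0% of all genes tested had a lower fitted level in RIC_hEV. The counts of lower markers in this paragraph stand beside that share. Lyz2 was the most abundant of the 9 in each library, and each marker but Clec4f was highest in ctr_hEV 1 and 3. Clec4f, a marker of resident Kupffer cells, was at 61.9, 39.1, 55.9 and 72.5 FPKM in RIC_hEV 1 to 4, against 54.0, 64.7, 47.4 and 57.4 FPKM in ctr_hEV 1 to 4. Among the other 6 libraries the order differed: RIC_hEV 1 had the lowest sum, but its Abcg1 lay above that of ctr_hEV 2 and 4. None of the 9 was at 0 in any library. Their part in the values of the 3 genes was not tested, and in bulk tissue fewer cells of a type and less RNA per cell cannot be told apart. Summed markers of stellate cells and myofibroblasts (31.4 to 51.2 FPKM in RIC_hEV and 31.8 to 127 FPKM in ctr_hEV, 5 of 5 lower) and cholangiocytes (2.88 to 3.23 FPKM in RIC_hEV and 2.88 to 16.9 FPKM in ctr_hEV, 4 of 4 lower) were also highest in ctr_hEV 1 and 3. Neutrophil markers were at 8.46 to 17.9 FPKM in RIC_hEV and 15.4 to 68.5 FPKM in ctr_hEV, 5 of 5 lower, with Ly6g at 0 in every RIC_hEV library and in ctr_hEV 4. Endothelial markers were at 56.1 to 78.6 FPKM in RIC_hEV and 58.6 to 68.8 FPKM in ctr_hEV, with 2 of 5 lower. B and plasma cell markers were at 40.6 to 53.2 FPKM in RIC_hEV and 12.3 to 24.2 FPKM in ctr_hEV and T cell markers at 2.08 to 2.59 FPKM in RIC_hEV and 1.53 to 2.29 FPKM in ctr_hEV, with 4 of 4 higher in each list.

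**Figure D3:**
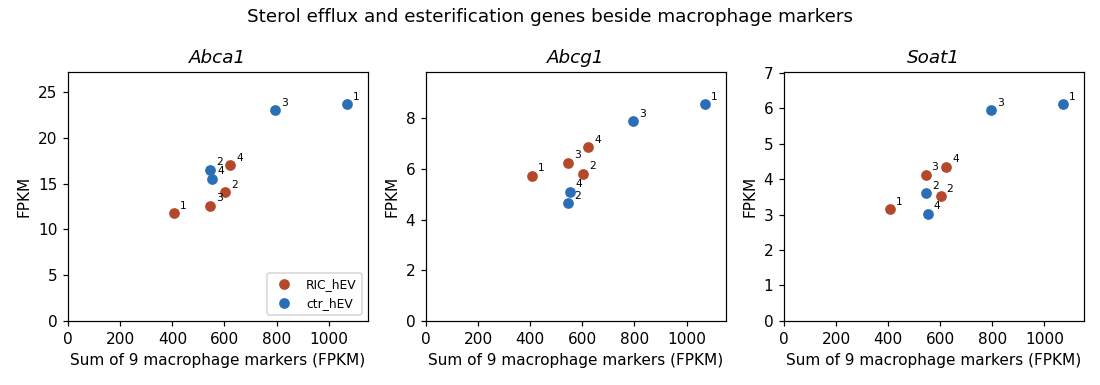
FPKM of Abca1, Abcg1 and Soat1 in each library against the summed FPKM of 9 macrophage markers; numbers are replicate numbers. ctr_hEV 1 and 3 lie at the upper right in each panel, and the other 6 libraries have marker sums of 406 to 622 FPKM. The mean level of all genes tested was highest in ctr_hEV 1 and 3 too.

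In the remaining 3 genes of efflux and esterification the 4 ctr_hEV libraries followed another order. Abcg5 and Abcg8, the 2 parts of the transporter that sends sterols into bile, had overlapping groups. Abcg5 was at 36.7, 59.9, 46.9 and 36.2 FPKM in RIC_hEV 1 to 4, against 52.4, 44.1, 47.8 and 52.6 FPKM in ctr_hEV 1 to 4. Abcg8 was at 11.3, 16.4, 8.05 and 8.68 FPKM in RIC_hEV 1 to 4, against 15.8, 11.9, 11.2 and 14.3 FPKM in ctr_hEV 1 to 4. RIC_hEV 2 was the highest library for both genes, and fitted changes had 95% intervals of -0.51 to 0.20 and -0.72 to 0.17 (limma adjusted p = 0.615 and 0.490). Soat2, the esterifying enzyme of hepatocytes and enterocytes, lies on chromosome 15, 102150526 to 102163469, plus strand. It measured 12.2, 13.5, 12.5 and 11.4 FPKM in RIC_hEV 1 to 4, against 17.4, 14.7, 13.4 and 14.0 FPKM in ctr_hEV 1 to 4. RIC_hEV 2 lay just above ctr_hEV 3, and otherwise the groups were apart. The relative change of Soat2 was -0.13 and the fitted one -0.24 (SE 0.11, 95% interval -0.48 to -0.0038, limma adjusted p = 0.355). The relative change was -0.19 to -0.075 with single libraries left out, nearest to 0 without RIC_hEV 4.

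**Figure D4:**
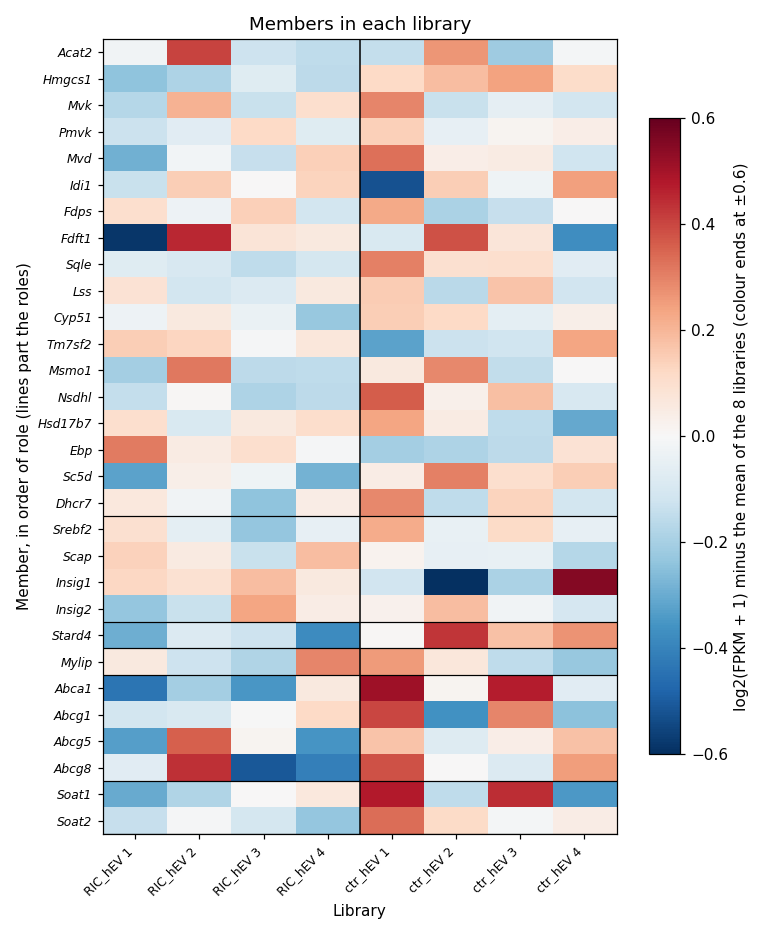
log2(FPKM + 1) of all 30 members in each library minus the mean of the 8 libraries, in order of role, with RIC_hEV left. Stard4, Hmgcs1 and Sc5d are bluer in RIC_hEV, while Abca1, Abcg1 and Soat1 are red in ctr_hEV 1 and 3, and Fdft1, Acat2 and Msmo1 are red in library 2 of both groups.

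Synthesis set against efflux and esterification gave a small difference, with ctr_hEV 1 and 3 the libraries furthest from RIC_hEV. The mean log2(FPKM + 1) of the 17 tested synthesis genes including Stard4 was 2.43, 2.59, 2.48 and 2.46 in RIC_hEV 1 to 4, against 2.63, 2.59, 2.53 and 2.51 in ctr_hEV 1 to 4. That of the 6 efflux and esterification genes was 3.51, 3.79, 3.58 and 3.61 in RIC_hEV 1 to 4, against 4.12, 3.66, 3.93 and 3.71 in ctr_hEV 1 to 4. The first minus the second was -1.08, -1.20, -1.10 and -1.15 in RIC_hEV and -1.49, -1.07, -1.40 and -1.20 in ctr_hEV. ctr_hEV 1 and 3 had the lowest differences, and ctr_hEV 2 and 4 lay within or beside the range of RIC_hEV. Group means of the difference were -1.13 ± 0.056 in RIC_hEV and -1.29 ± 0.19 in ctr_hEV (SD, n = 4 each), 0.16 higher in RIC_hEV. This difference was 0.0022 without ctr_hEV 1 and ctr_hEV 3 together and 0.090 without ctr_hEV 1 alone. The pair was chosen after the values were seen, and leaving out the lowest ctr_hEV libraries must shrink the difference.

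**Figure D5:**
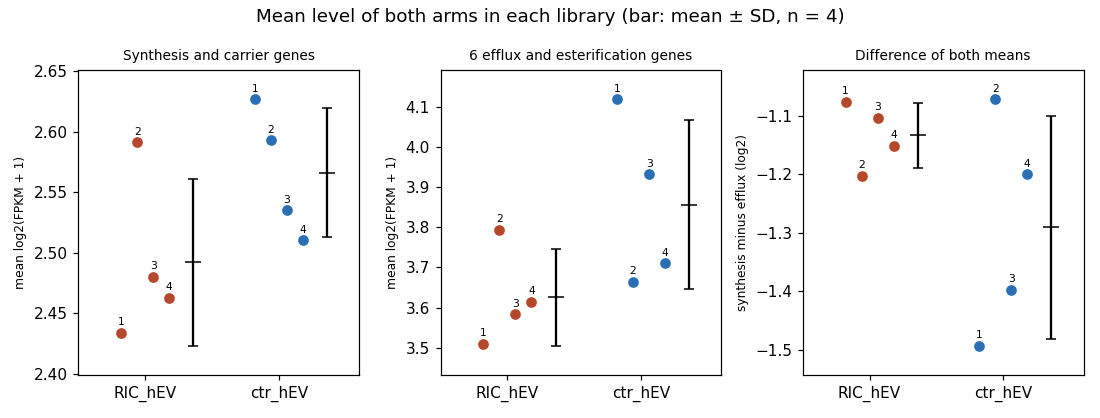
Mean log2(FPKM + 1) of 17 synthesis and carrier genes, of 6 efflux and esterification genes, and their difference in each library; axes do not start at 0. ctr_hEV 1 and 3 have the highest efflux means and the lowest differences, at -1.49 and -1.40.

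Genes around the set gave no further call. Of 47 genes in 4 lists, 42 were tested and none had an adjusted p below 0.05 (limma). At an unadjusted p below 0.05, 5 were lower (11.9%, against 11.4% of all genes tested) and 3 higher (7.14%, against 2.64%). Of 11 genes of SREBP processing and sterol sensing, 2 were lower at that level and the median lay at 0.0045 relative to the median gene. Rnf145, a sterol-responsive ubiquitin ligase of the endoplasmic reticulum, was at 5.45, 5.40, 5.41 and 5.61 FPKM in RIC_hEV 1 to 4, against 9.14, 6.33, 8.75 and 5.83 FPKM in ctr_hEV 1 to 4 (relative change -0.26, limma adjusted p = 0.354). Its groups did not overlap and ctr_hEV 1 and 3 were highest. Mbtps2, the second of the proteases that release SREBP2, averaged 1.11 ± 0.0732 FPKM in RIC_hEV and 1.64 ± 0.371 FPKM in ctr_hEV (SD, n = 4 each; relative change -0.20, limma adjusted p = 0.354).

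Of 10 genes of acetyl-CoA supply and side branches of the mevalonate pathway, 8 were tested and 0 were lower or higher at that level (median -0.024). Acat1, the mitochondrial thiolase, averaged 150.4 ± 24.5 FPKM in RIC_hEV and 131 ± 16.6 FPKM in ctr_hEV (relative change 0.31), and Acss2, which makes acetyl-CoA from acetate, averaged 3.08 ± 0.310 FPKM in RIC_hEV and 2.94 ± 0.508 FPKM in ctr_hEV (relative change 0.17). Of 13 genes of lipoprotein uptake and sterol transport, 11 were tested (median -0.079). At that level 2 were lower (18.2%, against 11.4% of all genes tested) and 1 was higher (against 2.64%). Scarb1, the receptor through which hepatocytes take cholesterol from HDL, was at 22.7, 24.4, 20.3 and 22.5 FPKM in RIC_hEV 1 to 4, against 20.5, 18.7, 17.9 and 18.5 FPKM in ctr_hEV 1 to 4. RIC_hEV 3 and ctr_hEV 1 crossed by a small margin and the other libraries kept the groups apart (relative change 0.35, fitted 95% interval 0.026 to 0.45, limma adjusted p = 0.354). Gramd1c, of a family that carries sterol from the plasma membrane to the endoplasmic reticulum, averaged 3.07 ± 0.622 FPKM in RIC_hEV and 4.18 ± 0.908 FPKM in ctr_hEV (relative change -0.23).

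Of 13 genes of LXR and cholesterol disposal, 12 were tested (median 0.082). At that level 1 was lower (8.33%, against 11.4% of all genes tested) and 2 were higher (against 2.64%). Cyp7a1, the rate-limiting enzyme of bile acid synthesis from cholesterol, was at 9.33, 27.1, 17.9 and 7.57 FPKM in RIC_hEV 1 to 4, against 21.6, 30.4, 19.2 and 45.6 FPKM in ctr_hEV 1 to 4. RIC_hEV 2 lay among the ctr_hEV libraries (relative change -0.85, SE 0.37, limma adjusted p = 0.354). Cyp8b1, which sets the share of cholic acid among bile acids, was at 75.9, 37.9, 36.1 and 29.5 FPKM in RIC_hEV 1 to 4, against 25.0, 27.0, 21.5 and 30.8 FPKM in ctr_hEV 1 to 4. RIC_hEV 1 was far above the rest, and RIC_hEV 4 lay below ctr_hEV 4 (relative change 0.79, SE 0.25, limma adjusted p = 0.354).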

How the data were processed

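Liver RNA in 8 libraries (4 RIC_hEV, 4 ctr_hEV, grouped by sample title) was measured by RNA sequencing after Trizol extraction, per the labels' protocols. The authors deposited FPKM values, 1 column per library; FastQC 0.11.9, Trimmomatic 0.38, HISAT2 2.2.1, HTSeq 0.13.5, R 3.4.1, DESeq2 1.18.1 and mm10 are named in the submitters' processing notes. Not given in the sources used here are the program behind the FPKM values, its gene lengths and annotation, and whether reads were assigned by strand.

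Of 55335 rows, 3225 named no gene and were left out (0.176% to 0.207% of FPKM per library). Where a symbol was repeated (80 symbols), the most abundant copy was used; 24 symbols had become calendar dates, and each was handled as any other symbol. Genes that averaged 1 FPKM or more were tested on log2(FPKM + 1) with limma 3.58.1 (R 4.3.3), empirical Bayes moderation with a trend, two-sided, Benjamini-Hochberg adjustment over all genes tested, threshold 0.05. The scale understates changes of low genes. Members below the filter were compared by exact permutation tests. Depth was estimated from the commonest value of FPKM times exon length (GENCODE M21) among low genes, read as 1 fragment; 14.4% to 16.0% of low values lay within 0.02 of a whole step, so no count model was used. The limma step was tested on simulated data, with planted changes larger than the fitted change of any tested member. That run does not show what can be detected at the size of the members' changes.

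All 30 members are named, and of the other lists the genes past the threshold, otherwise the 2 largest changes relative to the median. The members and lists were chosen with earlier results of these data known. Libraries differed from each other (highest r between libraries 0.987).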

Additional observations from a re-analysis of the deposited data

Results flagged for a closer look

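Within groups of 4 libraries, 66 sets of values were examined (30 members and 3 means in each group), and 3 held a library far from the others of its group, where chance flags about 1 in 20. Mvk was at 2.34 FPKM in ctr_hEV 1, with the other ctr_hEV libraries at 1.48 to 1.63 FPKM. Msmo1 was at 3.11 FPKM in RIC_hEV 2, with the other RIC_hEV libraries at 1.86 to 1.96 FPKM. Ebp was at 40.8 FPKM in ctr_hEV 4, with the other ctr_hEV libraries at 33.2 to 34.3 FPKM.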

How the results depend on the processing

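No member had an adjusted p below 0.05 under any alternative run: a pseudocount of 0.1, no filter, median centring, the TPM scale, no trend, the replicate number as a block, each library left out, or ctr_hEV 1 and ctr_hEV 3 left out together (chosen after the data were seen). The lowest adjusted p of a member was 0.073 (limma, Hmgcs1 without ctr_hEV 4). Same-numbered libraries did not deviate together (r of 0.052, 0.12, -0.0086 and -0.23), and the labels give the numbers no shared origin. With the replicate block 0 members and 3 of all genes were called, and the lowest adjusted p of a member was 0.461 (limma). The block cannot alter the median change (0.034) or the synthesis difference (0.157), as each replicate number occurs in both groups. Relative to the median gene the members had a median of 0.034, of -0.052 without the filter, where the median of all genes is -0.024, and of 0.0040 to 0.062 with single libraries left out. The difference of synthesis against efflux and esterification, 0.16, was 0.090 to 0.23 with single libraries left out and 0.0022 without ctr_hEV 1 and 3. Of all genes tested 4 were called, and 178 (41 higher, 137 lower) without ctr_hEV 4; with any other single library left out 1 to 6 were. No single member crossed the threshold, but the relative change turned sign in 32 of 420 comparisons, in 12 of 28 members. The replicate block, no trend and median centring cannot alter a relative change, so no sign could turn in them. Without the filter the fitted changes of these members were the same, and only the median of all genes moved, from -0.11 to -0.024. The cause of the other turns was not tested. Without the filter the relative change became -0.051 for Pmvk, -0.076 for Msmo1, -0.052 for Dhcr7, -0.019 for Insig2 and -0.017 for Abcg1. It was -0.0066 for Msmo1 with the smaller pseudocount. Without ctr_hEV 1 and 3 it became -0.071 for Acat2, -0.0049 for Pmvk and -0.17 for Msmo1. In that run it was 0.014 for Srebf2, -0.035 for Insig2 and 0.17 for Soat1. With single libraries left out it ran over -0.050 to 0.15 for Abcg1, -0.19 to 0.065 for Abcg5, -0.061 to 0.065 for Cyp51, -0.022 to 0.11 for Dhcr7, -0.041 to 0.29 for Fdft1, -0.015 to 0.13 for Insig2, -0.12 to 0.10 for Msmo1, -0.094 to 0.015 for Mvd, -0.013 to 0.077 for Pmvk, -0.21 to 0.0028 for Soat1 and -0.079 to 0.050 for Srebf2. The remaining 16 members, Hmgcs1, Sc5d, Stard4, Ebp, Abca1 and Soat2 among them, kept their sign throughout. Low members such as Sqle and Idi1 are limited by depth.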

Other observations

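Chosen after the values were seen, 5 of the 17 tested synthesis and carrier genes, Acat2, Fdft1, Msmo1, Sc5d and Stard4, had their highest value in library 2 of both groups (29.4%), against 4.12% of all genes tested. Fdft1 was at 11.03 FPKM in RIC_hEV 2 and at 4.87 to 8.30 FPKM in the other RIC_hEV libraries, against 10.5 FPKM in ctr_hEV 2 and 5.80 to 8.27 FPKM in the other ctr_hEV libraries. Msmo1 was at 3.11 FPKM in RIC_hEV 2 and 1.86 to 1.96 FPKM in the others, against 3.02 FPKM in ctr_hEV 2 and 1.98 to 2.43 FPKM in the others. Acat2 was at 21.2 FPKM in RIC_hEV 2 and 14.0 to 15.5 FPKM in the others, against 19.1 FPKM in ctr_hEV 2 and 13.5 to 15.6 FPKM in the others. The labels give no shared origin for libraries of the same number.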
